A study of Mus musculus with 70 samples.

Results

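Messenger RNA levels of 27 mouse genes of cholesterol synthesis, uptake and export were described in newborn neurons (NBN), basal progenitors (BP) and neural stem cells (NSC) of the developing dorsal cortex. The genes were listed by symbol: 7 enzymes of the mevalonate arm (Acat2, Hmgcs1, Mvk, Pmvk, Mvd, Idi1 and Fdps), 11 enzymes of the squalene and sterol arm (Fdft1, Sqle, Lss, Cyp51, Tm7sf2, Msmo1, Nsdhl, Hsd17b7, Ebp, Sc5d and Dhcr7), 5 regulators (Srebf1, Srebf2, Insig1, Insig2 and Scap) and 4 genes of sterol transport and lipoprotein uptake (Stard4, Abca1, Abcg1 and Lrp1). In a table of 23078 genes 26 were found by symbol, and Msmo1, which the table lists under its older symbol Sc4mol, was found by its Ensembl identifier. All 27 were among the 15508 genes tested, which had a group mean of 1 TPM or more somewhere in the series (TPM, transcripts scaled to a common total per library).

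Cholesterol is built from acetyl-CoA, first through mevalonate and the isoprenoid diphosphates, then through squalene, lanosterol and a series of sterol intermediates. Because lipoproteins of the blood hardly cross into the brain, neural cells make their own cholesterol or take up lipoprotein particles released by other neural cells. Sterol level is sensed in the endoplasmic reticulum, where SCAP escorts the SREBP transcription factors and INSIG proteins hold them back when sterols are plentiful. Excess sterol activates the liver X receptors, which are known to induce the exporters ABCA1 and ABCG1 and the gene Srebf1.

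The 70 RNA-seq libraries came from wild-type C57Bl/6 dorsal cortex, dissociated with papain and sorted for GFP. The 14 NBN libraries (5 stages, E15.5 to postnatal day 1, PN) and the 23 BP libraries (8 stages, E12.5 to PN) were sorted from Tbr2::GFP animals, in which GFP reports Eomes (Tbr2), a gene of intermediate progenitors. The 33 NSC libraries (10 stages, E10.5 to PN) were sorted from Hes5::GFP animals, in which GFP reports Hes5, a Notch target of stem cells. Each of the 23 groups of cell type and stage held 2 to 4 libraries. What told NBN from BP among the GFP-positive cells of that line is not given here, and the reporter line and the cell type cannot be told apart where NSC are compared with the other cells. The labels do not say whether replicates came from separate animals or litters, so p-values measure the spread between libraries, which may be technical.

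Hes5 ranged from 1.94 to 7.42 TPM in NBN, 2.33 to 8.21 TPM in BP and 47.4 to 536 TPM in NSC. Eomes ranged from 6.15 to 47.5 TPM in NBN, 248.5 to 715 TPM in BP and 20.9 to 737 TPM in NSC, so it did not separate BP from NSC. One PN library is titled NSC, while its cell type field names basal progenitors, and it was kept as NSC PN replicate 3 by its title and reporter line. All labels give the sex as female, although 43 of the 70 libraries held over 10 TPM of 4 Y-linked genes together. NSC E12.5 replicate 3 and BP E13.5 replicate 1 stood apart for several members, among them Lrp1 at 17.7 TPM and 32.8 TPM. The number of genes above 0 ran from 16098 to 21210 per library.

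Promoter sequences are shown for the 3 enzymes and the exporter on which most of the results below turn. They are RefSeq sequences of GRCm38.p6, from 250 bases before to 50 bases after the transcript start, written 5′ to 3′ on the strand of the gene. Capitals mark CCAAT (read on the other strand as ATTGG), the box bound by NF-Y, and TCACNCCAC, the core of a classical sterol regulatory element, on both strands.
Hmgcs1 (chr13:119690101-119690400, plus strand): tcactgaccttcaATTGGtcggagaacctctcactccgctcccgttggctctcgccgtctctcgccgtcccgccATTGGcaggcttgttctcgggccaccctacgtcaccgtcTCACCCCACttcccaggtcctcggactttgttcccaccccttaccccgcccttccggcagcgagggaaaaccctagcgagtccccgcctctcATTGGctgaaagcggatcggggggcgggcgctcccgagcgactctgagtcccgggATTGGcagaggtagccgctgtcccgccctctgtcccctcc
Idi1 (chr13:8885356-8885655, plus strand): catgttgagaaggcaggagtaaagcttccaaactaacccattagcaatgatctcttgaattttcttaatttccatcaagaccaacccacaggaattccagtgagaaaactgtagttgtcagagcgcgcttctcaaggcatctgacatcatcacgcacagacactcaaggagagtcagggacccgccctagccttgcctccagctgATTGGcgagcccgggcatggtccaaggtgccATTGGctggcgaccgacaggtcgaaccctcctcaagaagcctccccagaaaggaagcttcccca
Msmo1 (chr8:64733529-64733828, minus strand): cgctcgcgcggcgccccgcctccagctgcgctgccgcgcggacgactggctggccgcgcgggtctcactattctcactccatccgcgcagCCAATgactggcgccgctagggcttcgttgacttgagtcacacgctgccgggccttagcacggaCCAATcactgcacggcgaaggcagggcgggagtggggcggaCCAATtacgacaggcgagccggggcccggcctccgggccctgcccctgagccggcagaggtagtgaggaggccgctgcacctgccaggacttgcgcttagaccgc
Abca1 (chr4:53159846-53160145, minus strand): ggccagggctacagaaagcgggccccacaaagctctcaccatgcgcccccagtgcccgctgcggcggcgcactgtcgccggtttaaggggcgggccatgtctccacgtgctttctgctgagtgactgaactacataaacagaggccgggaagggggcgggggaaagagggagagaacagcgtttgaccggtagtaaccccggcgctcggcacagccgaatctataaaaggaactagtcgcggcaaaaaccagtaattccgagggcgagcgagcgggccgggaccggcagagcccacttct
Of the 27 genes, 22 matched the promoter table, with 30 promoters. Fdps, Fdft1, Sqle, Stard4 and Abcg1 had no entry, and some genes, such as Dhcr7 and Pmvk, had several. The 18 enzyme promoters are thus not 1 for each enzyme. CCAAT was found in 19 of the 30 (63.3%), and in 14 of the 18 enzyme promoters (77.8%), against 37.4% of all 32851 promoters of the same length. The sterol element core was found in 1 of the 30 (3.33%), that of Hmgcs1, with its first base 137 before the start, against 1.24% of all promoters. The Idi1 promoter held CCAAT on the minus strand, with first bases 45 and 14 before the start. That of Msmo1 held it on the plus strand 160, 96 and 55 bases before. The Abca1 window held neither. These matches describe letters in the windows and are not binding sites.

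Levels of the 27 genes moved over very different ranges across the 23 groups. The widest was that of Abca1, the cholesterol exporter of the plasma membrane, whose group means spanned 87.6-fold. It was followed by Idi1, the isopentenyl diphosphate isomerase, at 9.12-fold, Srebf1 at 7.82-fold and Abcg1 at 6.88-fold. The narrowest was that of Pmvk, the phosphomevalonate kinase, at 1.52-fold. The summed level of the 18 enzymes had its highest stage mean in NBN at E17.5 (2768 TPM) and its lowest in BP at PN (1094 TPM), and NSC at PN stood at 2386 TPM. Among enzymes, the group means of Nsdhl, an enzyme of sterol demethylation, followed the mean of the other enzymes most closely (Pearson r = 0.92 over 23 groups), ahead of Msmo1 (0.88) and Hmgcs1 (0.87). Those of Fdft1, the squalene synthase (0.08), and Ebp, a sterol isomerase (0.06), hardly followed it. These correlations describe group means that come from the same libraries and scaling, and have no test.

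**Figure D1:**
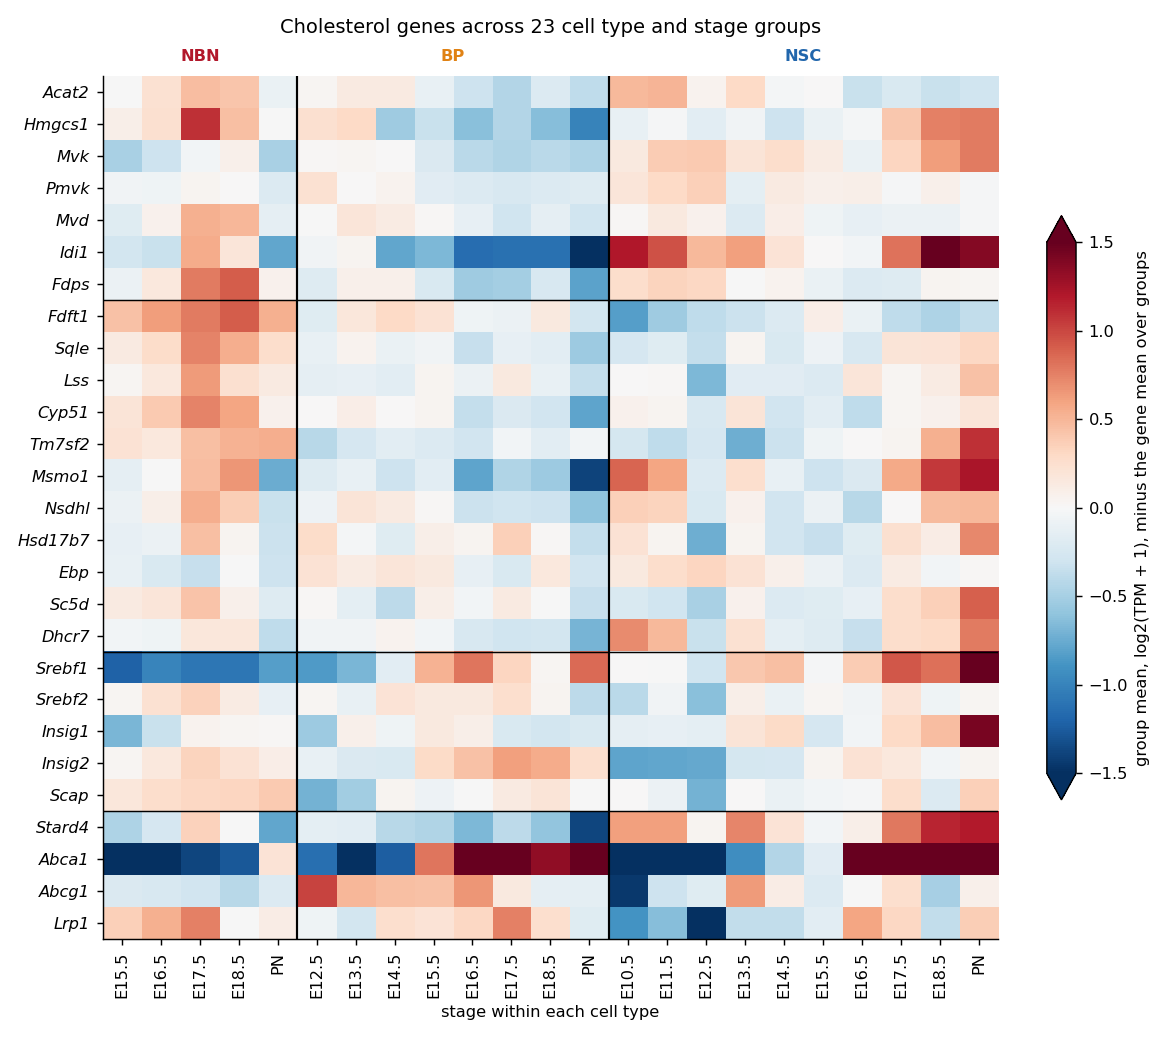
Heat map of the 27 genes (rows, by role) in the 23 groups (columns: NBN, BP and NSC from left to right, stages early to late), coloured by the group mean of log2(TPM + 1) minus the mean of that gene over groups and clipped at 1.5. Most enzymes are high in NBN at E17.5 and E18.5 and in NSC at PN and low in BP at PN, whereas Abca1 is low in NBN from E15.5 to E18.5.

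Each comparison below is a difference of group means of log2(TPM + 1), with each stage given equal weight. A gene passed the test at a Benjamini-Hochberg adjusted p below 0.05 by limma, and was called where the difference was also at least 1 on the log2 scale. Values of TPM given for a comparison are means over the stages compared. In sorted bulk samples, fewer cells of a type and less RNA of a gene per cell cannot be told apart. The 3 comparisons between cell types share libraries, so their results are not independent.

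Newborn neurons were compared with basal progenitors at the 5 stages they share (E15.5 to PN), which sets neurons against the dividing precursors they arise from. Most of the synthesis pathway was higher in NBN. All 7 enzymes of the mevalonate arm and 9 of the 11 of the sterol arm passed the test as higher, and none as lower, where 27.9% of all tested genes passed as higher and 41.9% as lower. The median difference of the 18 enzymes was 0.46 on the log2 scale, against -0.07 over all tested genes. The exceptions were Hsd17b7, a sterol ketone reductase, with a difference of -0.04 ± 0.06 (SE), and Ebp, with -0.13 ± 0.07. They did not pass (adjusted p = 0.59 and 0.077).

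Idi1 was the enzyme with the largest difference. Its level in NBN was 80.8, 72.3, 74.3 and 78.8 TPM at E15.5, 78.4, 67.3 and 74.4 TPM at E16.5, 142 and 131 TPM at E17.5, 108, 116 and 91.9 TPM at E18.5, and 55.2 and 52.4 TPM at PN. In BP it was 87.8, 87.6 and 93.9 TPM at E12.5, 102, 92.0 and 92.8 TPM at E13.5, 53.6, 63.8 and 44.1 TPM at E14.5, 53.4, 62.7, 51.0 and 64.7 TPM at E15.5, 35.3, 45.7 and 43.9 TPM at E16.5, 38.7 and 45.6 TPM at E17.5, 42.4, 40.1 and 43.6 TPM at E18.5, and 31.5 and 26.7 TPM at PN. NBN libraries were above the BP libraries of the same stage at each of the 5 stages, but NBN at PN overlapped BP at E15.5. Over these stages Idi1 averaged 89.2 TPM in NBN and 42.6 TPM in BP, a log2 difference of 1.01 ± 0.07 (adjusted p = 1.44e-19). It was the only member called higher, where 4.36% of all genes were. Its call rests on a narrow margin: the difference was 0.988 to 0.9998 without BP E15.5 replicate 3, BP E16.5 replicate 1, BP E17.5 replicate 1, BP PN replicate 2 or NBN E18.5 replicate 2, each left out alone, and 0.84 without the E17.5 libraries.

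Hmgcs1, which makes the HMG-CoA that the pathway reduces to mevalonate, came next, and its groups did not overlap. In NBN its level was 329, 297, 330 and 341 TPM at E15.5, 373, 349 and 358 TPM at E16.5, 669 and 634 TPM at E17.5, 428, 451 and 375 TPM at E18.5, and 323 and 285 TPM at PN. In BP at the same stages it ran from 146 to 261 TPM. The difference was 0.98 ± 0.05 (411 TPM in NBN and 202 TPM in BP, adjusted p = 3.73e-23). Fdps, the farnesyl diphosphate synthase, differed by 0.83 (308 TPM in NBN and 169 TPM in BP). Acat2, the thiolase at the head of the pathway, averaged 205 TPM in NBN and 144 TPM in BP, a difference of 0.49. Mvk and Pmvk, the mevalonate kinases, differed by the least in this arm, at 0.14 and 0.15.

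In the sterol arm Cyp51, which demethylates lanosterol, differed most. It averaged 152 TPM in NBN and 92.1 TPM in BP (log2 difference 0.72 ± 0.04), and Fdft1 averaged 254 TPM in NBN and 159 TPM in BP (0.67 ± 0.03). Fdft1 and Sqle, the squalene epoxidase (201 TPM in NBN and 129 TPM in BP), did not overlap between the cell types. Msmo1, a methylsterol monooxygenase, was 0.72 higher (80.0 TPM in NBN and 47.5 TPM in BP). Dhcr7, the last reductase of one branch, differed by 0.28.

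Microglial markers moved with this comparison: 4 of 7 were called higher in NBN, with a summed level of 5.05 to 71.1 TPM over NBN libraries and 3.35 to 18.1 TPM over BP libraries of the same stages. Other lists moved too. Of neuronal markers 4 of 6, and of precursor markers 1 of 6, were called higher in NBN. Called lower were all 4 BP, 3 of 6 NSC, 2 of 6 astroglial and 1 of 8 dissociation stress markers. Their part in the result was not tested.

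Against NSC the same neurons showed no common direction. Of the 18 enzymes 6 passed as higher and 8 as lower in NBN (31.4% and 49.6% of all genes). This split turned to 10 higher and 3 lower by median ratio scaling, 11 and 4 by quantile normalization, and 11 and 2 without the PN libraries. No member was called higher in NBN, where 6.51% of all genes were. Fdft1 was the enzyme with the largest positive difference: 254 TPM in NBN and 136 TPM in NSC (log2 difference 0.90 ± 0.03, adjusted p = 1.03e-32), without overlap. Fdps (0.45), Cyp51 (0.45) and Acat2 (0.44) were also higher in NBN. Idi1 went the other way, with 89.2 TPM in NBN and 171 TPM in NSC (-0.86 ± 0.06), followed by Mvk (-0.60) and Msmo1 (-0.41). Hmgcs1 averaged 411 TPM in NBN and 405 TPM in NSC and did not pass the test (adjusted p = 0.84).

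Many marker lists moved with NBN against NSC. Called higher in NBN were 4 of 7 microglial markers (sum 5.05 to 71.1 TPM in NBN and 2.18 to 17.3 TPM in NSC of the same stages) and 4 of 6 erythroid ones (stage means of the sum 124 to 641 TPM in NBN and 77.0 to 348 TPM in NSC). Called lower in NBN were all 6 precursor markers (1.304 to 39.4 TPM in NBN and 9.96 to 1730 TPM in NSC), all 6 astroglial ones (29.9 to 69.4 TPM in NBN and 104 to 1578 TPM in NSC) and all 5 interneuron ones (5.13 to 61.6 TPM in NBN and 109 to 1027 TPM in NSC). So were all 6 NSC, all 4 BP, 4 of 8 dissociation stress and 1 of 6 endothelial and pericyte markers. All 6 neuronal markers were called higher. Their part in the result was not tested.

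Within NBN most enzymes peaked at E17.5 or E18.5. Of 18 enzymes, 11 had their highest NBN stage mean at E17.5 and 6 at E18.5, and Tm7sf2, a sterol reductase, had it at PN. Ebp, highest at E18.5, had its lowest stage mean at E17.5. The share of all tested genes with their highest NBN mean at these stages was not counted. The summed level was 2424 to 2842 TPM in the 5 NBN libraries of E17.5 and E18.5 and 1630 to 2052 TPM in the other 9 NBN libraries. In 12 members, all of them enzymes (Acat2, Hmgcs1, Mvk, Mvd, Idi1, Fdps, Fdft1, Sqle, Cyp51, Msmo1, Nsdhl and Dhcr7), those 5 libraries lay above the other 9 without overlap, where 1.12% of all tested genes did so. Mvd, Fdps, Fdft1, Sqle and Cyp51 were higher in these 5 libraries than in all other 65 libraries of the series, against 0.542% of all genes. These stages were picked after the values were seen, so the separations are descriptions and have no test.

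Fdps shows the shape of the peak. In NBN its level was 218, 219, 222 and 206 TPM at E15.5, 275, 242 and 253 TPM at E16.5, 414 and 379 TPM at E17.5, 414, 450 and 432 TPM at E18.5, and 268 and 215 TPM at PN. The 5 libraries of E17.5 and E18.5 stand clear of the rest, and PN falls within the span of the 2 earliest stages. No BP library exceeded 252 TPM and no NSC library exceeded 339 TPM. The NBN libraries of E17.5 listed 18150 and 19465 genes above 0, against 16441 to 17810 in the other NBN libraries, and whether this bears on their levels was not tested.

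The planned test of time in NBN set late stages (E17.5, E18.5 and PN) against E15.5 and E16.5, and so averages over the fall at PN. In it 12 of 18 enzymes passed as higher and none as lower, where 19.2% and 15.3% of all genes did, and no member was called (1.27% and 1.06% of all genes were). The largest enzyme difference was that of Fdps (357 TPM late and 236 TPM before, 0.55 ± 0.06, adjusted p = 8.89e-12). Msmo1 had a difference of 0.20 ± 0.09 and did not pass (adjusted p = 0.079). Without the E17.5 libraries only 5 enzymes passed as higher and 1 as lower. Microglial markers rose as well, with 4 of 7 called and a summed level of 23.9 to 71.1 TPM late and 5.05 to 32.3 TPM before, and their part in the result was not tested. Of 5 interneuron markers 3 were called higher too (sum 10.3 to 61.6 TPM late and 5.13 to 12.6 TPM before). So were 2 of 6 precursor, 2 of 6 astroglial, 2 of 8 dissociation stress, 1 of 6 NSC and 1 of 6 endothelial and pericyte markers. Of 4 BP markers 2 were called lower, with stage means of the sum of 58.4 to 92.5 TPM late and 138 to 173 TPM before. The part of these lists was not tested either.

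**Figure D2:**
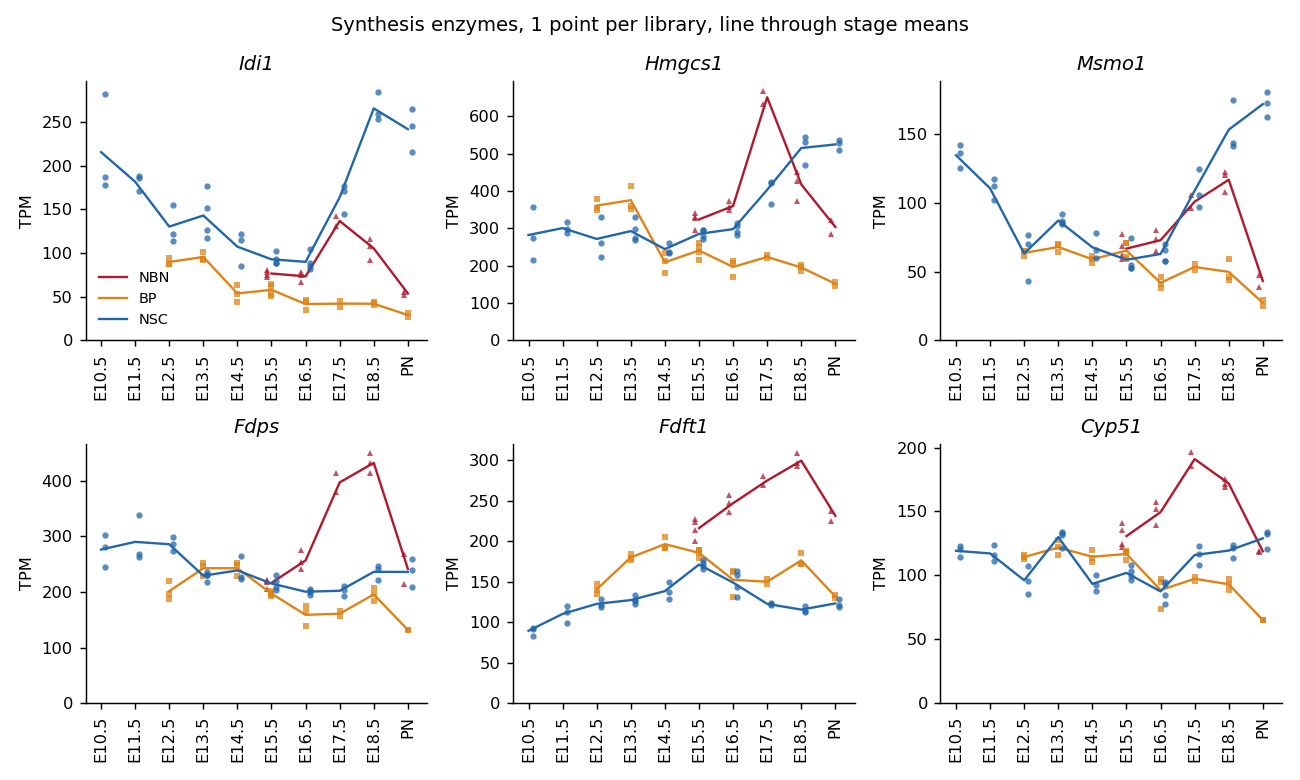
Level in TPM (y axis) of Idi1, Hmgcs1, Msmo1, Fdps, Fdft1 and Cyp51 in every library by stage (x axis), with lines through stage means (triangles NBN, squares BP, circles NSC). Fdps in NBN reaches 379 to 450 TPM at E17.5 and E18.5, and Idi1 at the late stages lies at 26.7 to 45.6 TPM in BP and 144 to 284 TPM in NSC.

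Basal progenitors were compared with NSC at the 8 stages they share (E12.5 to PN), to set the progenitor against the stem cell it comes from. Enzymes were mostly lower in BP. Of 18 enzymes 12 passed as lower and 1 as higher, against 40.7% and 35.5% of all genes, and the median difference of -0.16 was small (-0.02 over all genes). Without the PN libraries 7 passed as lower and 2 as higher. Of the 27 members 2 were called lower and none higher, against 6.22% and 1.87% of all genes. They were Idi1 and Stard4.

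Idi1 in NSC was 177, 188 and 282 TPM at E10.5, 188, 186 and 171 TPM at E11.5, 122, 155.1 and 114 TPM at E12.5, 177, 117, 126 and 151 TPM at E13.5, 114.8, 122 and 85.2 TPM at E14.5, 92.7, 88.0, 103 and 88.1 TPM at E15.5, 89.9 ± 10.4 TPM (SD, n = 4) at E16.5, 171, 144 and 176 TPM at E17.5, 284, 259 and 253 TPM at E18.5, and 215, 265 and 245 TPM at PN. The level was thus high at both ends of development and lowest around E15.5 and E16.5, whereas in BP, given above, the highest late library was at 45.6 TPM. BP averaged 56.5 TPM and NSC 154 TPM over the shared stages, a log2 difference of -1.43 ± 0.05 (adjusted p = 6.14e-32).

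The BP against NSC difference was not constant. Its change, the difference at E17.5 to PN minus that at E12.5 to E16.5, was tested as an interaction. Of 18 enzymes 14 passed with a lower late difference and none with a higher one, against 32.3% and 25.5% of all genes, and the median over the enzymes was -0.65 (-0.02 over all genes). Called lower were 4 members (7.74% of all genes) and called higher none (2.99%). Idi1 differed by -2.52 late and -0.77 at the earlier stages, a change of -1.76 ± 0.10 (adjusted p = 1.13e-20). Msmo1 differed by -1.74 late and -0.18 earlier (change -1.56 ± 0.10), and Hmgcs1 by -1.34 late and -0.06 earlier (change -1.28 ± 0.08). The earlier average of Hmgcs1 joins opposite signs: 0.43 at E12.5, 0.36 at E13.5, -0.23 at E14.5, -0.25 at E15.5 and -0.60 at E16.5. It then differed by -0.84 at E17.5, -1.39 at E18.5 and -1.78 at PN. The fall thus began before E17.5. At the earlier stages every enzyme of the sterol arm but Msmo1 averaged higher in BP, and every mevalonate enzyme but Mvd averaged lower. Some of these averages were near 0, such as those of Tm7sf2 (0.01), Ebp (0.04) and Acat2 (-0.02). For many enzymes the sign of the average thus changed, as for Nsdhl (0.18 earlier and -0.71 late) and Cyp51 (0.13 and -0.53). The averages of Hsd17b7 (0.34 and -0.35) leaned on E12.5 (1.03) and PN (-1.07). At the other shared stages Hsd17b7 differed by -0.09 to 0.44. The earlier differences were not tested on their own.

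The libraries show how far the late groups separate. At the late stages Hmgcs1 lay at 146 to 228 TPM in BP and 364 to 544 TPM in NSC, whereas at E12.5 to E16.5 it lay at 170 to 415 TPM in BP and 224 to 331 TPM in NSC. Msmo1 lay at 25.0 to 59.4 TPM in late BP and 96.9 to 181 TPM in late NSC, and at the earlier stages at 38.0 to 70.8 TPM in BP and 43.0 to 91.9 TPM in NSC. The late groups do not overlap for either gene, and the earlier groups overlap for both. At the late stages 10 members were lower in every BP library than in any NSC library, against 19.4% of all genes, and at E12.5 to E16.5 none were (1.62%). The summed enzyme level was 1084 to 1482 TPM in late BP and 1852 to 2445 TPM in late NSC. At E12.5 to E16.5 it was 1157 to 1871 TPM in BP and 1493 to 1849 TPM in NSC.

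Fdft1 was the exception among enzymes. It was the enzyme that passed as higher in BP (164 TPM, against 134 TPM in NSC, difference 0.29 ± 0.02, adjusted p = 2.83e-16), and its difference showed no detectable change with time (0.06 ± 0.05, adjusted p = 0.31). Acat2 (-0.03 ± 0.04), Pmvk (-0.11 ± 0.06) and Ebp (-0.18 ± 0.10) likewise did not pass the interaction test.

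Markers of oligodendrocyte precursors and astroglia moved with the same contrast. All 6 of each list were called lower in the interaction. So were 3 of 6 NSC, 1 of 4 BP, 1 of 6 endothelial and pericyte and 1 of 8 dissociation stress markers. Called higher were 2 of 6 neuronal and 1 of 5 interneuron markers. The precursor markers summed to 3.91 to 19.9 TPM in late BP and 389.5 to 1730 TPM in late NSC, and the astroglial ones to 57.9 to 114.6 TPM in late BP and 527 to 1578 TPM in late NSC. In BP, Sox10 was listed at 0 in 12 of 23 libraries, Gpr17 in 7, Gfap in 6 and Olig1 in 3. All 5 interneuron markers, all 6 precursor markers and 4 of 6 astroglial ones were called lower in BP over all shared stages. So were all 6 NSC markers, 3 of 8 dissociation stress genes and 1 of 6 endothelial and pericyte markers. Of 6 neuronal markers 2 were called higher in BP, and of 4 BP markers 0 were called. Their part in the BP against NSC results, and in the NSC changes described next, was not tested.

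**Figure D3:**
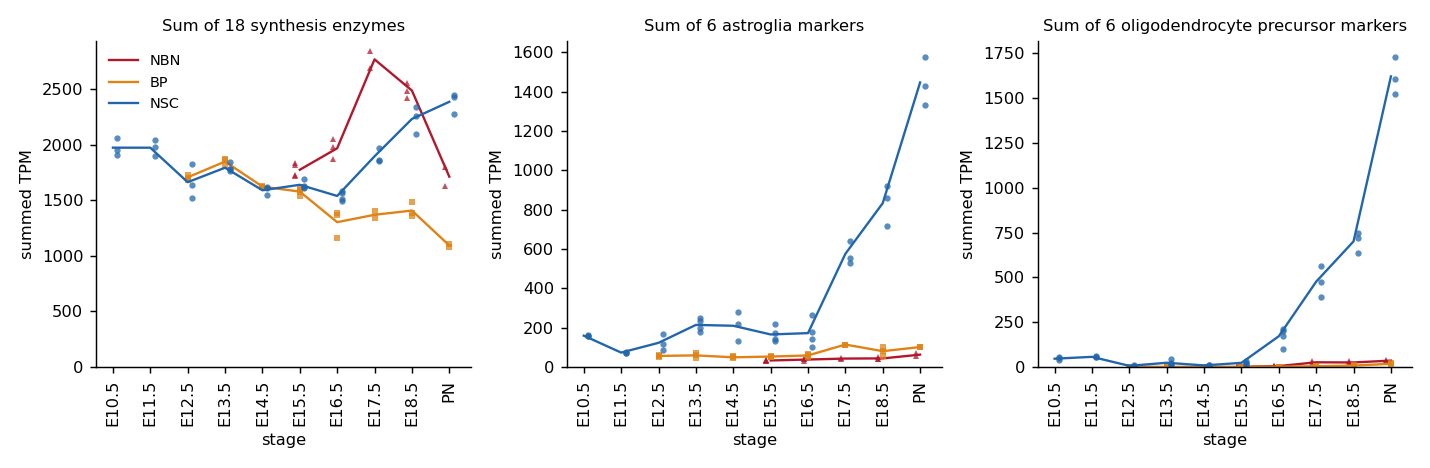
Summed TPM (y axis) per library and stage (x axis) of the 18 synthesis enzymes, 6 astroglial markers and 6 oligodendrocyte precursor markers (triangles NBN, squares BP, circles NSC, lines through stage means). The enzyme sum in NBN peaks at E17.5 (mean 2768 TPM) while the precursor and astroglial sums there reach 31.5 and 46.3 TPM, and all 3 sums are higher in late than in mid NSC.

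Over time, NSC were compared first between E13.5 to E15.5 and the earliest stages, E10.5 and E11.5. Enzymes were mostly lower at the mid stages: 11 of 18 passed as lower and 3 as higher (29.6% and 47.5% of all genes), and 17 and 1 did with median ratio scaling. The median over all tested genes was 0.14 on this scale and -0.05 with median ratio scaling, and that of the enzymes was -0.17 on this scale. Idi1 averaged 114 TPM at mid and 199 TPM at early stages (-0.80 ± 0.09), Msmo1 71.1 TPM at mid and 123 TPM at early stages (-0.79 ± 0.08), and Dhcr7 73.6 TPM at mid and 114 TPM at early stages (-0.63 ± 0.07). Msmo1 and Dhcr7 did not overlap between these stages. Fdft1 differed in the other direction, with 146 TPM at mid and 99.8 TPM at early stages (0.54 ± 0.04, without overlap). No enzyme was called in this comparison. Marker lists moved with it. Called lower at mid stages were 5 of 6 erythroid markers (sum 24.6 to 420 TPM mid and 500.5 to 2593 TPM early). Called higher were 5 of 6 neuronal markers (1927 to 4625 TPM mid and 387 to 2682 TPM early), 3 of 4 BP markers (479 to 1450 TPM mid and 105.3 to 438 TPM early) and 3 of 5 interneuron markers (38.5 to 636.5 TPM mid and 34.3 to 317 TPM early). Of 6 NSC and of 6 astroglial markers, 2 each were called higher and 1 each lower. Of 6 precursor markers 2 were called lower. Of 6 endothelial and pericyte markers and of 8 dissociation stress genes, 1 each was called higher and 1 each lower. Their part in the result was not tested.

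From mid to late stages (E17.5, E18.5 and PN) the direction in NSC turned. Of 18 enzymes 12 passed as higher and 2 as lower, against 45.1% and 25.0% of all genes, and their median of 0.38 compares with 0.12 over all genes. That all-gene median was 0.02 by median ratio scaling and -0.07 by quantile normalization. Of the enzymes, 10 had their highest NSC stage mean at PN, and 7 had their lowest at E16.5. The matching shares of all tested genes were not counted.

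Msmo1 changed the most among enzymes. Its NSC level was 87.0, 84.4, 91.9 and 85.1 TPM at E13.5, 65.4, 78.0 and 59.6 TPM at E14.5, 54.7, 52.9, 74.4 and 52.5 TPM at E15.5, 96.9, 105.3 and 124 TPM at E17.5, 174.8, 143 and 141 TPM at E18.5, and 162, 181 and 172 TPM at PN. The late libraries all lay above the mid ones. The difference was 1.01 ± 0.07 (144.5 TPM late and 71.1 TPM mid, adjusted p = 1.01e-17), and Msmo1 was 1 of 2 members called higher (9.31% of all genes), with none called lower (2.45%). The difference was 0.976 to 0.9996 without NSC E14.5 replicate 3, E15.5 replicate 1, 2 or 4, E17.5 replicate 3, E18.5 replicate 1 or PN replicate 2, each left out alone, and 0.87 without the PN libraries.

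Idi1 (0.96 ± 0.08), Tm7sf2 (0.94 ± 0.07) and Hmgcs1 (0.80 ± 0.06) were close behind, the last without overlap (481 TPM late and 274 TPM mid). Acat2 (-0.38 ± 0.03) and Fdft1 (-0.26 ± 0.04) passed as lower. Mvd, the mevalonate diphosphate decarboxylase (39.3 TPM late and 39.7 TPM mid), Pmvk, Fdps and Ebp did not pass. All 6 precursor and all 6 astroglial markers were called higher, with sums of 389.5 to 1730 TPM late and 5.16 to 46.2 TPM mid, and of 527 to 1578 TPM late and 131 to 279 TPM mid. Of 8 dissociation stress genes, 3 were called higher as well (sum 362 to 1295 TPM late and 212 to 524 TPM mid). So were 3 of 6 endothelial and pericyte markers (24.7 to 97.1 TPM late and 2.86 to 36.1 TPM mid) and 2 of 5 interneuron markers (281 to 1027 TPM late and 38.5 to 636.5 TPM mid), and 4 of 6 neuronal markers were called lower (722 to 1803 TPM late and 1927 to 4625 TPM mid). Of 6 NSC markers 4 were called higher, and of 6 erythroid ones 1.

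In BP the same span ran the other way for the enzymes. All 7 enzymes of the mevalonate arm and 7 of the 11 of the sterol arm passed as lower at late than at mid stages and none as higher, against 18.4% and 41.6% of all genes, and the enzymes' median of -0.37 compares with 0.12 over all genes. None was called (1.42% of all genes were called lower). Idi1 averaged 37.8 TPM late and 69.1 TPM mid (-0.82 ± 0.08), Msmo1 43.5 TPM late and 64.1 TPM mid (-0.61 ± 0.08), and Nsdhl 35.4 TPM late and 51.0 TPM mid (-0.52 ± 0.06, without overlap). Acat2, Cyp51, Nsdhl and Insig1 were the members whose late libraries all lay below the mid ones, against 2.78% of all genes. Lss, the lanosterol synthase, Tm7sf2, Hsd17b7 and Sc5d, a sterol desaturase, did not pass. Called higher in late BP were 4 of 5 interneuron markers (sum 9.34 to 46.6 TPM late and 3.56 to 8.98 TPM mid), 2 of 6 precursor markers (3.91 to 19.9 TPM late and 0.98 to 1.86 TPM mid), 2 of 6 astroglial markers (57.9 to 114.6 TPM late and 43.6 to 71.7 TPM mid) and 2 of 6 endothelial and pericyte markers (5.62 to 78.9 TPM late and 1.70 to 20.9 TPM mid). So were 2 of 8 dissociation stress, 1 of 7 microglial and 1 of 6 NSC markers. Of 6 neuronal markers 1 was called lower. The part of these lists was not tested.

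The lowest BP levels of most members came at PN, and the share of all tested genes lowest there was not counted. Of the 27 members 17 had their lowest BP stage mean there, 14 of them enzymes, and 8 (Hmgcs1, Idi1, Fdps, Cyp51, Msmo1, Nsdhl, Dhcr7 and Stard4) were lower in both PN libraries than in any other BP library, against 3.99% of all genes. The 2 PN libraries were named after their values were seen, and this separation has no test. In NBN, 18 members at PN likewise lay below all E17.5 and E18.5 libraries (13.7% of all genes).

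**Figure D4:**
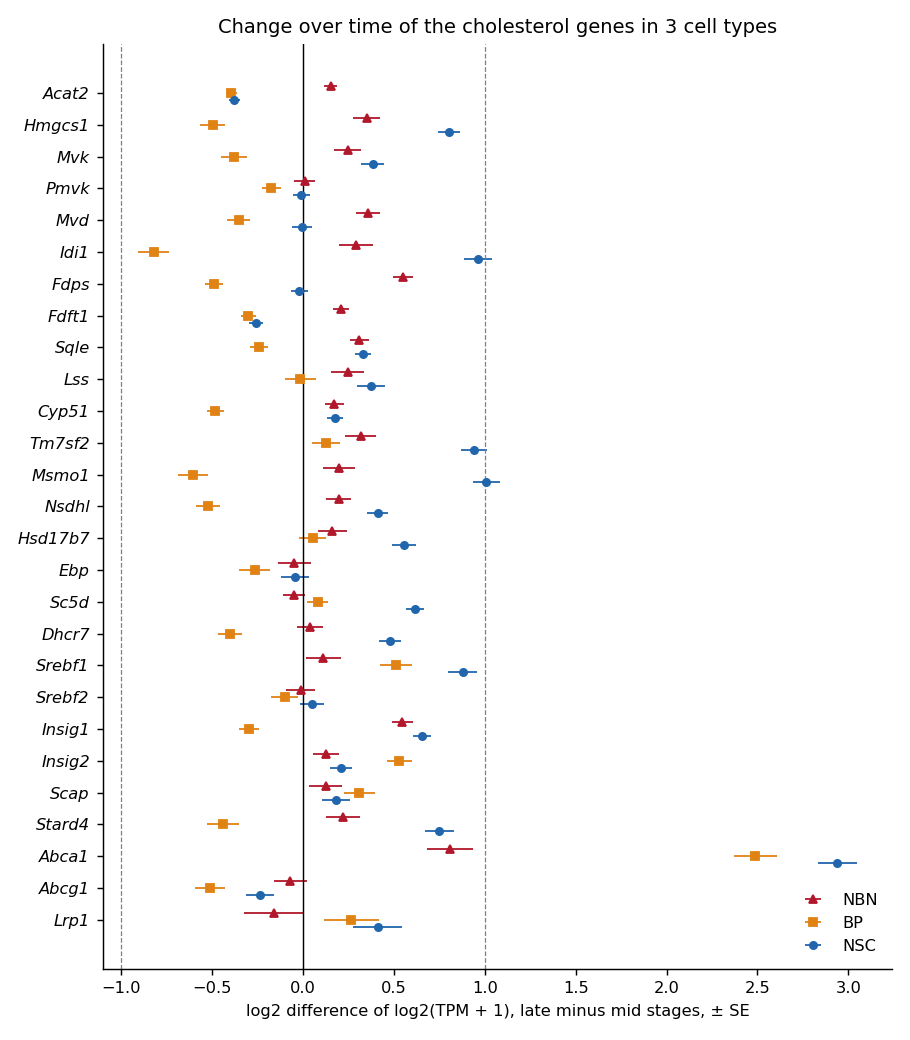
Log2 difference between late and mid stages (x axis, points with SE) for the 27 genes (y axis, by role) in NBN, BP and NSC, with dashed lines at a difference of 1 in each direction. Idi1 is at 0.29 in NBN, -0.82 in BP and 0.96 in NSC, and Abca1 is the member farthest to the right in all 3 cell types.

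The regulators of SREBP did not move as a block. Srebf1, which encodes the SREBP form that drives fatty acid genes as well, was the regulator with the lowest level in neurons. In NBN it was 20.1, 22.3, 23.4 and 16.7 TPM at E15.5, 24.8, 20.9 and 27.2 TPM at E16.5, 23.1 and 22.1 TPM at E17.5, 21.7, 22.3 and 23.9 TPM at E18.5, and 27.9 and 26.8 TPM at PN. At these stages it ran from 47.4 to 108 TPM in BP and from 41.6 to 177 TPM in NSC. NBN libraries did not overlap either. The difference was -1.54 ± 0.07 from BP (adjusted p = 1.39e-26) and -1.79 ± 0.06 from NSC (adjusted p = 1.99e-31), and both were called, as 5.06% and 12.6% of all genes were called lower in these comparisons.

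Srebf1 and the enzymes thus differed in opposite directions between NBN and BP. Its group means had a correlation of -0.20 with the mean of the enzymes over the 23 groups, as a description. Srebf2, which encodes the SREBP form best known for cholesterol genes, averaged 177 TPM in NBN and 167 TPM in BP and did not pass (0.08 ± 0.06, adjusted p = 0.19). Scap, the escort, was 0.24 ± 0.07 higher in NBN than in BP and 0.22 ± 0.06 higher than in NSC. Between BP and NSC, Srebf1 was on average lower in BP (57.5 TPM in BP and 78.7 TPM in NSC, log2 difference -0.44 ± 0.05). By stage it was higher in BP at E15.5 (0.55) and E16.5 (0.44), and lower at the other shared stages (-0.56 to -1.09). Srebf2 was on average higher in BP (167 TPM in BP and 156 TPM in NSC, 0.10 ± 0.04, adjusted p = 0.026).

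The INSIG genes went separate ways. Insig1 encodes the retention factor that is itself a target of SREBP. Its level at PN was 81.9 and 79.5 TPM in NBN, 69.3 and 66.9 TPM in BP, and 199.96, 238 and 209 TPM in NSC. NSC at PN stood above all other groups, whose libraries ended at 118 TPM. From mid to late stages Insig1 rose in NBN by 0.55 ± 0.06 (adjusted p = 5.79e-11) and in NSC by 0.66 ± 0.05, and fell in BP (-0.30 ± 0.05). In NBN and in BP the late libraries did not overlap the mid ones. Insig2, the second retention factor, was higher in BP than in NSC (48.2 TPM in BP and 38.6 TPM in NSC, 0.31 ± 0.04) and rose from mid to late stages in BP by 0.53 ± 0.07.

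Insig2 was 1 of the 4 regulators that passed as higher in NSC at mid against early stages (0.63 ± 0.07, without overlap), where 47.5% of all genes did, and none passed as lower, although Srebf2 and Insig1 changed sign and Srebf1 did not pass by median ratio scaling. At late against mid stages 4 of 5 passed as higher in NSC (45.1% of all genes), among them Srebf1 (114.6 TPM late and 60.4 TPM mid, 0.88 ± 0.08, without overlap), while Insig2 and Scap did not pass by median ratio scaling or quantile normalization. In BP 3 passed as higher (41.6% of all genes) and 1, Insig1, as lower (18.4%). In NBN only Insig1 passed, as higher (19.2%).

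Among the transport genes, Abca1 had the widest changes of the 27. In NSC it was 0.606, 0.675 and 1.25 TPM at E10.5, 2.29, 2.51 and 2.69 TPM at E11.5, 2.67, 2.52 and 1.18 TPM at E12.5, 4.01, 5.63, 3.97 and 4.60 TPM at E13.5, 4.84, 9.09 and 6.39 TPM at E14.5, 8.59, 6.33, 11.4 and 7.27 TPM at E15.5, 29.1, 26.3, 31.1 and 37.7 TPM at E16.5, 52.4, 37.1 and 50.7 TPM at E17.5, 55.2, 54.9 and 37.0 TPM at E18.5, and 77.9, 74.8 and 68.9 TPM at PN. In BP it was 4.12, 3.48 and 3.84 TPM at E12.5, 2.04, 3.07 and 3.11 TPM at E13.5, 3.58, 3.07 and 3.82 TPM at E14.5, 17.2, 17.6, 16.47 and 18.1 TPM at E15.5, 48.7, 26.4 and 29.3 TPM at E16.5, 44.7 and 37.1 TPM at E17.5, 22.1, 25.8 and 28.4 TPM at E18.5, and 46.3 and 49.8 TPM at PN. In NBN it was 2.03, 2.59, 2.18 and 2.05 TPM at E15.5, 2.47, 3.34 and 2.19 TPM at E16.5, 3.34 and 2.77 TPM at E17.5, 4.01, 2.74 and 3.37 TPM at E18.5, and 11.24 and 11.01 TPM at PN.

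Abca1 rose between adjacent stages, with no overlap between their libraries, at several points. In BP these lay between E14.5 and E15.5 and between E15.5 and E16.5. In NSC they lay between E10.5 and E11.5, between E12.5 and E13.5, and between E15.5 and E16.5. Between E18.5 and PN it rose without overlap in NBN, BP and NSC alike. In BP it also fell without overlap between E12.5 and E13.5 and between E17.5 and E18.5. These steps were picked after the values were seen and have no test. Late against mid, Abca1 rose by 2.49 ± 0.12 in BP (38.1 TPM late and 7.86 TPM mid, adjusted p = 3.05e-24) and by 2.94 ± 0.11 in NSC (56.5 TPM late and 6.57 TPM mid, adjusted p = 1.1e-30), both called and without overlap. It was the only member called in BP, where 3.29% of all genes were called higher. In NBN it rose by 0.81 ± 0.13 (5.85 TPM late and 2.44 TPM at E15.5 and E16.5), which was not called.

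Between cell types Abca1 was lower in NBN than in BP, with a log2 difference of -2.75 ± 0.09 (4.49 TPM in NBN and 33.3 TPM in BP, adjusted p = 1.05e-31, without overlap). Against NSC the log2 difference was -2.86 ± 0.09 (4.49 TPM in NBN and 41.8 TPM in NSC), and NBN at PN overlapped NSC at E15.5. In NSC, the mid against early difference of 1.53 ± 0.12 was called (6.57 TPM mid and 1.67 TPM early, adjusted p = 9.38e-17), and with the low levels of the early stages it came to 0.78 with a pseudocount of 5.

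**Figure D5:**
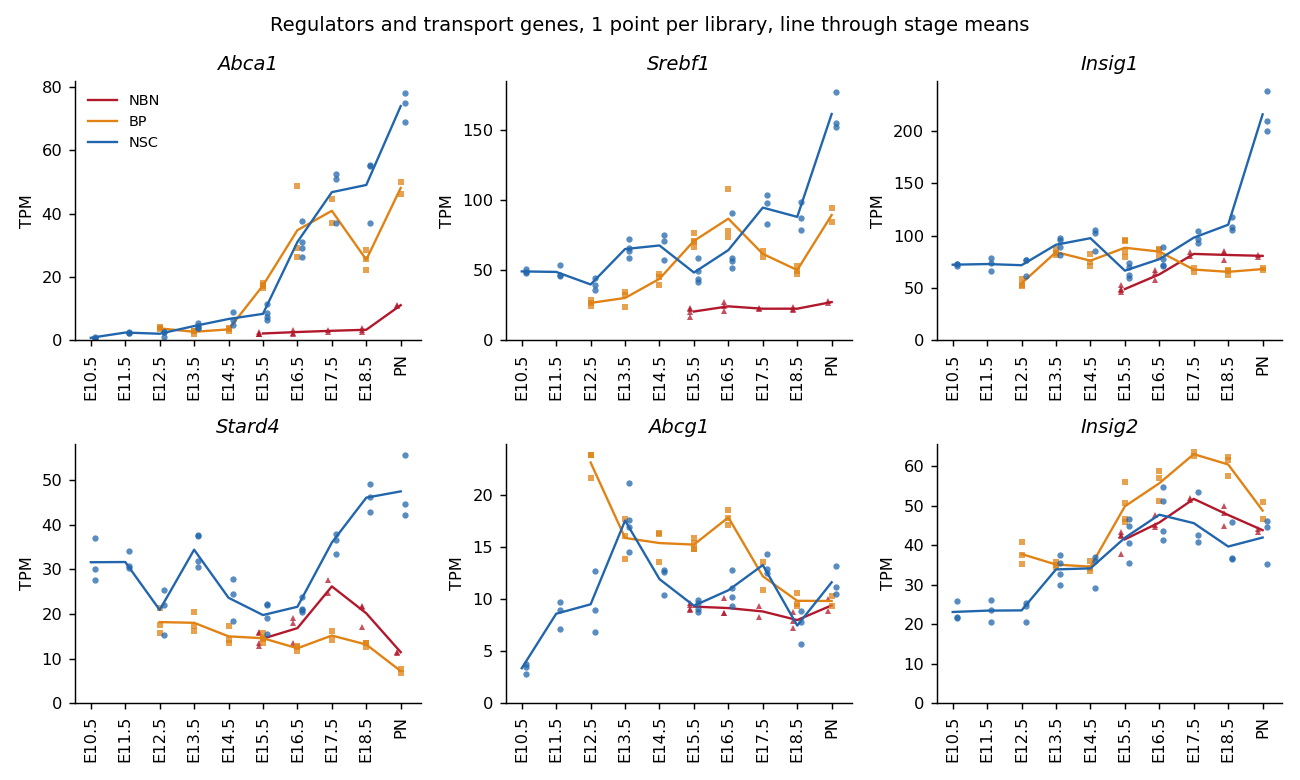
Level in TPM (y axis) of Abca1, Srebf1, Insig1, Stard4, Abcg1 and Insig2 in every library by stage (x axis), with lines through stage means (triangles NBN, squares BP, circles NSC). Abca1 reaches 68.9 to 77.9 TPM in NSC at PN against 11.01 and 11.24 TPM in NBN, and Srebf1 stays between 16.7 and 27.9 TPM in NBN.

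Abcg1, the partner exporter, followed another course. It was 23.8, 21.6 and 23.8 TPM in BP at E12.5 and lay at 9.32 to 13.53 TPM in late BP. In NBN it ran from 7.24 to 10.1 TPM. In NSC it started at 3.51, 3.76 and 2.80 TPM at E10.5 and was highest at E13.5, at 14.4, 16.9, 21.1 and 17.6 TPM. Its NSC difference at mid against early stages was called (12.9 TPM mid and 5.97 TPM early, 1.07 ± 0.09, adjusted p = 1.59e-16), so that Abca1 and Abcg1 were the 2 members called higher there, against 13.7% of all genes, and none was called lower (5.26%). That of Abcg1 came to 0.85 by median ratio scaling and 0.70 by quantile normalization. From mid to late stages Abcg1 fell in BP (-0.51 ± 0.08) and in NSC (-0.24 ± 0.08), while Abca1 rose in both.

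Stard4, which carries sterol between membranes, went with the enzymes (r = 0.74 over 23 groups, as a description). At PN it was 11.4 and 11.53 TPM in NBN, 6.69 and 7.73 TPM in BP, and 42.2, 55.8 and 44.6 TPM in NSC. It averaged 14.2 TPM in BP and 31.3 TPM in NSC over the shared stages (-1.04 ± 0.05, adjusted p = 2.16e-25), and the difference was -0.83 without the PN libraries. The deficit was larger at late (-1.83) than at earlier stages (-0.57), a change of -1.26 ± 0.11 (adjusted p = 9.37e-15), or -0.89 without PN. Lrp1, a receptor for lipoproteins and many other ligands, was 0.36 ± 0.09 higher in BP than in NSC (104 TPM in BP and 86.7 TPM in NSC) and did not pass in NBN against BP (0.08 ± 0.12). It was also the member with the largest standard errors, and the libraries of NSC E12.5 replicate 3 and BP E13.5 replicate 1 were low for it.

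A second list of 21 sterol genes outside the 27 was counted beside them, of which 20 were tested. Between NBN and BP, 8 passed as higher and 9 as lower, against 27.9% and 41.9% of all genes, and 3 were called higher and 2 lower, against 4.36% and 5.06%. Lbr, a nuclear envelope protein with sterol reductase activity, was called lower in NBN (13.8 TPM in NBN and 30.4 TPM in BP, -1.10 ± 0.06). The receptors of Reelin and of apolipoprotein E parted: Vldlr was called higher in NBN (42.7 TPM in NBN and 15.2 TPM in BP, 1.42 ± 0.11) and Lrp8 lower (190.4 TPM in NBN and 416 TPM in BP, -1.14 ± 0.09). Mylip, which marks lipoprotein receptors for degradation, and Cyp46a1, the neuronal cholesterol hydroxylase, were also called higher, at 1.03 and 1.15. Against NSC, Lbr (-2.06), Soat1, which esterifies cholesterol (-1.20), Apoe (-2.67) and Lcat (-1.76) were called lower in NBN.

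Apoe, the main apolipoprotein of brain lipoproteins, had the largest change over time on this list. In NSC it averaged 1196 TPM at late and 25.3 TPM at mid stages (5.29 ± 0.14, adjusted p = 1.43e-36), in BP 79.4 TPM late and 13.4 TPM mid (2.30 ± 0.16), and in NBN 96.2 TPM late and 23.7 TPM at E15.5 and E16.5 (1.90 ± 0.17). Late and mid libraries did not overlap in any of the 3 cell types. Lcat, which esterifies cholesterol in lipoproteins (2.92), and Scarb1, a lipoprotein receptor (1.08), were also called higher in late NSC, where 17 of 20 passed as higher and 2 as lower, against 45.1% and 25.0% of all genes. With Apoe, 3 of 20 were called higher, against 9.31%. Between BP and NSC, Apoe (-2.24), Cyp46a1 (-1.48), Lcat (-1.26), Scarb1 (-1.07) and Lbr (-1.01) were called lower in BP. In the interaction Apoe (-2.66), Lcat (-2.33) and Soat1 (-1.03) were among those called lower. The astroglial and precursor markers given above moved with Apoe in NSC, and their part was not tested.

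In NSC at mid against early stages Lrp8 (164 TPM mid and 33.7 TPM early, 2.35 ± 0.12) and Vldlr (15.6 TPM mid and 6.01 TPM early, 1.18 ± 0.15) were called higher. Lrp8 was also called higher in BP at late against mid stages (457 TPM late and 194 TPM mid, 1.36 ± 0.12).

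Of 12 genes of fatty acid synthesis, 9 passed as higher and 1 as lower in NSC at late against mid stages, against 45.1% and 25.0% of all genes. The 5 called higher (9.31% of all genes were) were Thrsp (3.49), which promotes lipogenesis, the desaturases Scd1 (1.73) and Fads2 (1.08), the malic enzyme gene Me1 (1.46) and Elovl5 (1.22), which lengthens fatty acids. In BP 4 passed as higher and 2 as lower over the same span, near or below the shares of all genes (41.6% and 18.4%), with Thrsp called (1.98). In NBN 4 passed as higher and 2 as lower (19.2% and 15.3% of all genes), again with Thrsp called (1.11). Between NBN and BP, Me1 was called higher (16.55 TPM in NBN and 5.35 TPM in BP, 1.49 ± 0.06) and Thrsp lower (-1.22), and against NSC Thrsp was lower in NBN (-2.20). In the interaction between BP and NSC, 8 passed as lower and none as higher (32.3% and 25.5% of all genes), with Me1 (-1.84), Scd1 (-1.79), Thrsp (-1.52), Scd2 (-1.11) and Fads2 (-1.05) called. At mid against early stages in NSC, Scd1 was called lower (12.7 TPM mid and 47.2 TPM early, -1.79 ± 0.11) and Thrsp higher (1.66).

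Outside the 27, the genes whose 23 group means were most like the mean of the 18 enzymes included Cry1 (Pearson r = 0.83), Nudt2 (0.80), Vat1l (0.79), Bmpr1b (0.79), Asap1 (0.79), Arxes1 (0.78), Klf10 (0.75) and Sfxn1 (0.74). Cry1, a repressor of the circadian clock, moved within a narrow range, from 11.01 TPM in BP at E16.5 to 23.1 TPM in NSC at PN. These likenesses rank group means from shared libraries and carry no test.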

How the data were processed

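The authors deposited 1 table of TPM per gene (transcript abundance scaled to a common total in every library), made, per the submitters' processing notes, by kallisto 0.43.0 with mm10 and GRCm38.p2 as the builds. TPM hold no counts, so depth is unknown and no interval or floor that needs it is given, and a strong increase of abundant genes depresses the rest. Every column name matched 1 sample title, and 0 columns were left over. Groups follow the titles. No pair of libraries held identical values.

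Of 23078 gene identifiers 22361 were in the reference name table. The 15508 genes whose highest group mean was 1 TPM or more were tested on log2(TPM + 1), which understates changes of low genes, with limma 3.58.1 in R 4.3.3: 1 mean per cell type and stage, 47 residual degrees of freedom, variance trend, Benjamini-Hochberg adjustment over all tested genes. Mid stages were E13.5 to E15.5 (E15.5 and E16.5 in NBN), early E10.5 and E11.5, late E17.5 to PN. On simulated data with 200 genes changed by 1.5 (log2) among 15508, 100% were recovered with 0 false calls in each of the 7 contrasts simulated (the interaction was not). That change lies above the threshold of 1 for a call. The simulation therefore does not examine smaller differences that passed on adjusted p alone.

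All 27 genes may be named. Those called in a contrast are named with values, as are those with the largest and smallest differences, and levels in every group are given for the member with the largest called difference. From the other sterol and fatty acid lists, called genes are named. Hmgcs1, Fdps, Msmo1, Srebf1, Insig1, Stard4 and Abcg1 were chosen for their library values after their values were seen. Some genes that the rule selects are not reported here. The 10 alike genes had a highest group mean of at least 20 TPM. Members and lists were chosen with earlier results of these data known. Marker lists were summed per library.

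Alternatives covered the pseudocount (0.5 and 5), filter, scaling, variance model, array weights, stages and libraries entering, a Y-linked covariate, the replicate number as a block, and leaving out each library. Leaving out E17.5 was added after seeing the data. Promoters are from RefSeq (GRCm38.p6). Figures were drawn with matplotlib 3.10.9.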

Additional observations from a re-analysis of the deposited data

Results flagged for a closer look

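Each of the 27 genes was examined in each of the 5 groups of 4 libraries for a lone library, by Dixon's criterion. A lone library was found in 5 of these sets of gene and group, with NBN E15.5 replicate 3 found for both Srebf2 and Insig2. Chance gives a lone library in about 1 in 20 sets, so the number found is no more than chance alone would give. The sets are listed as a description. Msmo1 in NSC at E15.5 was 74.4 TPM in replicate 3 and 52.5 to 54.7 TPM in the others. Lrp1 in NSC at E13.5 was 48.0 TPM in replicate 1 and 76.1 to 81.8 TPM in the others. In NBN at E15.5, replicate 3 had 174.6 TPM of Srebf2 (161 to 162 TPM in the others) and 37.7 TPM of Insig2 (42.5 to 43.3 TPM in the others). Lss in NSC at E13.5 was 30.1 TPM in replicate 3 and 29.27 to 29.3 TPM in the others.

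The BP against NSC difference changed between E12.5 to E16.5 and E17.5 to PN, by the interaction test of limma, for 4 members called: Idi1 (-1.76), Msmo1 (-1.56), Hmgcs1 (-1.28) and Stard4 (-1.26, log2 scale).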

How the results depend on the processing

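No called result reversed under the 14 or 15 alternatives run for it and the 70 fits without 1 library. With the scaling changed to median ratio or quantile, the enzymes passing between BP and NSC as higher were 2 in place of 1, and the members called higher in NBN against BP were 2 in place of 1. In NBN against NSC, 10 enzymes passed as higher and 3 as lower by median ratio and 11 and 4 by quantile, in place of 6 and 8. There 1 member was called higher with median ratio scaling, in place of 0, and the median of the members was 0.15 with quantile normalization, in place of 0.01. In NSC at mid against early stages, median ratio scaling gave 1 member called higher and 2 lower, a median of -0.34, and 1 enzyme higher and 17 lower. Quantile normalization gave 1 member called higher, a median of -0.27 and 1 enzyme higher, in place of 2, -0.08 and 3. In NSC at late against mid stages 1 member was called higher with both scalings, in place of 2, and quantile normalization let 1 enzyme pass as higher in the interaction. Over all genes, higher and lower calls with quantile normalization were 398 and 798 for BP against NSC (290 and 965 as reported), 1466 and 1501 for NBN against NSC (1009 and 1952), 956 and 698 for late against mid NSC (1444 and 380), 327 and 328 for late against mid BP (510 and 220), 1444 and 1325 for mid against early NSC (2128 and 816), and 657 and 1024 for the interaction (463 and 1200). Median ratio scaling gave 377 and 291 in late against mid BP and 1543 and 1387 in mid against early NSC. Some members that passed changed sign with the scaling: Hsd17b7, Ebp, Pmvk, Sc5d and Abcg1 in NBN against NSC, and Sqle, Sc5d, Srebf2 and Insig1 in mid against early NSC.

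With a pseudocount of 5, the members called were 1 lower in BP against NSC, 0 higher in NBN against BP, 0 higher in mid against early NSC and 1 higher in late against mid NSC. Array weights, whose fit did not fully converge, gave 0 members called higher and 1 enzyme lower in NBN against BP and 2 enzymes higher in BP against NSC. Wider stage windows gave 1 member called higher in mid against early NSC and 1 enzyme higher in late against mid BP.

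Without the PN libraries, BP against NSC had 1 member called lower and 2 enzymes higher and 7 lower, NBN against BP 1 enzyme lower, and NBN against NSC 11 enzymes higher and 2 lower. Late against mid, NSC had 1 member called higher and BP 2 enzymes higher, and the interaction had 1 enzyme higher and a median of -0.40 in place of -0.58. Without the E17.5 libraries, chosen after seeing the data, 0 members were called higher in NBN against BP and 4 in late against mid NSC, and 7 were called lower in the interaction, in place of 4. Late against mid NBN then had 1 member called higher, a median of 0.051 in place of 0.20, and 5 enzymes higher and 1 lower.

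Leaving out 1 library at a time gave 1 to 2 enzymes higher in BP against NSC (2 without NSC E12.5, E14.5 or PN replicate 2, BP E13.5 or E16.5 replicate 1 or BP PN replicate 2). It gave 0 to 2 members called higher in NBN against BP (2 without NBN PN replicate 2) and 0 to 1 enzymes lower (1 without BP E16.5 replicate 1, NBN E16.5 replicate 3 or NBN E18.5 replicate 2), and 1 to 2 members called higher in late against mid NSC. The cause of these shifts was not tested. Without NSC PN replicate 3, whose labels conflict, every result kept its direction and its side of the threshold.

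Whether replicate numbers pair the samples is not settled. Same-numbered libraries of BP and NBN deviated together, with a correlation over 0.1, in 8 of 14 pairs. Those of NSC and BP did so in 9 of 23, and those of NSC and NBN in 1 of 14. Differently numbered libraries were not compared, and for BP and NBN the pairs repeat the same value at E17.5 (0.124) and at PN (0.363). With BP and NBN paired by stage and number, 676 genes were called higher and 785 lower in NBN, the same as without pairing. Both cell types held the same replicate numbers at each shared stage, so pairing leaves every log2 difference unchanged. A call needs a difference of at least 1, so these counts cannot show whether pairing matters. With the replicate number as a block, 16 enzymes passed as higher in NBN against BP and 9 as lower in mid against early NSC, in place of 16 and 11. TPM hold no depth, so the counting error of genes near 1 TPM, such as Abca1 at E10.5, is unknown.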
